A study of Mus musculus with 4 samples.

Results

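Oxidative phosphorylation subunits are the proteins that build the respiratory chain and ATP synthase of the inner mitochondrial membrane. The set described here was chosen by gene symbol: the Nduf genes of the a, b, c, s and v series, the 4 Sdh genes, the Uqcr genes, the Cox4 to Cox8 genes, the Atp5 genes and the 13 protein-coding genes of the mitochondrial genome. Of 32285 genes in the matrices, 96 matched and 93 had at least 20 unique molecular identifiers (UMIs, each counting 1 captured RNA molecule) over both libraries. The 93 were 80 nuclear genes (36 of complex I, 4 of complex II, 8 of complex III, 15 of complex IV and 17 of complex V) and 13 mitochondrially encoded genes (7, 0, 1, 3 and 2 in the same order). Ndufa4 and Ndufa4l2 were counted with complex IV, where the NDUFA4 protein sits despite its name. Cox7b2, Cox8b and Cox8c had fewer than 20 UMIs. The structural subunits Cox4i1, Cox4i2, Ndufab1 and Cyc1 lay outside the symbol rule and are given apart from it.

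The cells came from a study of VISTA, an inhibitory immune receptor encoded by Vsir, in tumor-infiltrating myeloid cells. Bone marrow chimeras were made with WT and VISTA KO donors (strain C57/BL6), left for 6 weeks, and then implanted with the mouse colon carcinoma MC38. Tumors of 9 to 10 mm were pooled, donor cells were told apart by the CD45.1 and CD45.2 alleles, and viable CD11b+ cells were sorted, with 10000 cells loaded. Each genotype gave 1 gene expression library, so no test between the genotypes was possible, no p-value is given, and every interval below covers counting error only. The sources used here do not give the strain or age of the hosts, the KO allele, or the CD45 allele that marked each genotype.

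The WT library held 61753547 UMIs in 10241 barcodes and the VISTA KO library 80366761 UMIs in 15257 barcodes, of which 10193 and 15140 were kept, with median depths of 4692 and 4212.5 UMIs. The libraries shared 47 barcode sequences. Vsir stood at 137 counts per 1000000 UMIs (CPM) in WT and 46.2 CPM in VISTA KO. A 3′ tag reads only the end of the transcript, so the remaining level checks nothing if the deleted part lies elsewhere. Cells were grouped by clusters computed without the members, and classes were named "-like" from marker RNA: 3251 WT and 2961 KO monocyte-like cells, 1295 and 3044 macrophage-like, 435 and 720 cDC2-like (a dendritic cell subset), 171 and 255 mature DC-like, 634 and 592 NK cell-like, 392 and 77 neutrophil-like, and 1930 and 787 in a cluster mixing neutrophil and macrophage markers. The labels call all of these myeloid suppressor cells, and NK cell-like and T cell-like cells were also found in the sort. Clusters numbered 0, 5, 7, 8, 12 and 15 carried no name. Without a limit on mitochondrial UMIs, 129 WT and 187 KO droplets formed a cluster mixing NK cell and macrophage markers. WT clustered alone gave such a cluster of 122 droplets, and KO clustered alone did not. The clustering used here did not set these droplets apart, and how far NK cell-like values include macrophage RNA was not tested.

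Complex I takes electrons from NADH and complex II from succinate. Both pass them through ubiquinone to complex III, cytochrome c and complex IV, which reduces oxygen. Complexes I, III and IV pump protons, and complex V, the ATP synthase, uses the gradient to make ATP. Complex II is built from nuclear genes alone, while the other 4 complexes combine nuclear subunits with core subunits read from the mitochondrial genome, so their assembly draws on transcripts of both genomes. In macrophages and monocytes the balance of respiration and glycolysis is known to differ with activation state.

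Promoters of nuclear members held motifs of a few activators more often than those of all genes. RefSeq (GRCm38.p6) promoter windows, 250 bases before to 50 bases after the start, were matched for 67 of the 80 nuclear members. Their median GC content was 58% against 52.7% for all windows, and their median number of CpG was 19 against 7. The NRF1 motif is a nuclear respiratory factor site, spelled out in capitals in the promoters of Atp5k and Sdhd below. It occurred on either strand in 17 of 67 members (25.4%) and in 5.19% of all genes with a window. The ETS motif CCGGAAG, bound by GABPA, occurred in 17 members (25.4%, against 9.93%), the YY1 motif in 5 (7.46%, against 0.995%), the ERRA motif TCAAGGTCA in 2 (2.99%, against 0.466%) and TATAAA in 6 (8.96%, against 15.7%). A match is a description of letters and not a site in use, and the comparison with all genes was not matched for CpG.

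Promoters of 5 members named in the results below are shown. Ndufa4 was lower in the KO library in every cluster compared, and Ndufb1 (Ndufb1-ps in the matrices) higher in every one. Sdhd and Atp5k were members near or above 0. Cox6a1 carried both ETS and NRF1 motifs, as Sdhd, Atp5k and Atp5h also did over their full windows. Each run is the 250 bases before the start, 5′ to 3′ on the minus strand of GRCm38.p6, with motif matches in capitals. The positions are chr6:11907451-11907700 for Ndufa4, chr12:101975739-101975988 for Ndufb1, chr9:50603850-50604099 for Sdhd, chr5:108434400-108434649 for Atp5k and chr5:115348959-115349208 for Cox6a1.
Ndufa4: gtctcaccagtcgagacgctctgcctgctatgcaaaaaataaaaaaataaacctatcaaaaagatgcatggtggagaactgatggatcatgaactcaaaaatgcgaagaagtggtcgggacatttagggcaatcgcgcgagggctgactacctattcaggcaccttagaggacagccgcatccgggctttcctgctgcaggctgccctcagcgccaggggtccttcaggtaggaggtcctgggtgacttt
Ndufb1: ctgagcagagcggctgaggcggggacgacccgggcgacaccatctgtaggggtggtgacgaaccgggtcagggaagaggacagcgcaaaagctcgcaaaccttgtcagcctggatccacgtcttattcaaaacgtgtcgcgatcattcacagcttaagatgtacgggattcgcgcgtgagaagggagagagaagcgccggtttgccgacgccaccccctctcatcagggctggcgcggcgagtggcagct
Sdhd: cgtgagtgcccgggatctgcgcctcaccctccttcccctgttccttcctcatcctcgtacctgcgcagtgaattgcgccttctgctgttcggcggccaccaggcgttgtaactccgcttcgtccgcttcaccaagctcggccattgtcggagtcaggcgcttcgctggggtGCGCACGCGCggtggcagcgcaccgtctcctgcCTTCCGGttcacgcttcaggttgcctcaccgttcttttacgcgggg
Atp5k: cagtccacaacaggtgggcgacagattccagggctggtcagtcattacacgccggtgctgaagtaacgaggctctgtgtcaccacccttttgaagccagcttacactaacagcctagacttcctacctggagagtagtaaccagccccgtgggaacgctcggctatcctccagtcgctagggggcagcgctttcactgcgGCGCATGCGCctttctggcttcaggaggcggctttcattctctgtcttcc
Cox6a1: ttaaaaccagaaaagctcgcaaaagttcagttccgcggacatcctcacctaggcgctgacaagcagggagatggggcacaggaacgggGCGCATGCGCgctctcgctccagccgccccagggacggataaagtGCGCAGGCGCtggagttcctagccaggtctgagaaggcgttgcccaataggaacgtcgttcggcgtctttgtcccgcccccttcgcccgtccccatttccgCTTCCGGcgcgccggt
Ndufa4, below 0 in every cluster compared, and Ndufb1, above 0 in each, held none of the motifs in these 250 bases. Absence of a motif was the usual case: 50 matched members lacked the NRF1 motif, 50 the ETS motif and 62 the YY1 motif. In the printed bases Cox6a1 held 2 separate NRF1 matches and an ETS match, Sdhd 1 NRF1 match and an ETS match, and Atp5k 1 NRF1 match. Over the full windows Atp5k also held an ETS match and Sdhd an ERRA match. In monocyte-like cells the median log2 ratio was -0.26 for the 17 members with the NRF1 motif and -0.23 for the 50 without, -0.22 with and -0.24 without the ETS motif, and -0.29 for the 5 with and -0.22 for the 62 without the YY1 motif. In all kept cells the YY1 medians were -0.17 with and -0.08 without, those of NRF1 -0.07 and -0.10, and those of ETS -0.10 and -0.08.

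In monocyte-like cells, transcripts of nuclear members were lower and mitochondrially encoded ones higher in the VISTA KO library. Summed nuclear members made up 27515.5 CPM in WT and 23692.7 CPM in KO, a log2 ratio of -0.22 (interval -0.22 to -0.21). Summed mitochondrially encoded members made up 11224 CPM in WT and 12967 CPM in KO, a log2 ratio of 0.21 (0.20 to 0.22). The median log2 ratio of the nuclear members was -0.23, with 70 of the 78 that had at least 20 UMIs below 0, while the median of all genes with at least 100 UMIs was 0.06. A gene was called lower or higher where its log2 ratio was at least 0.32 from 0 and its interval left out 0. By that rule 15 of 78 nuclear members were lower and 0 higher, against 7.61% of all genes lower and 15.5% higher. The 13 mitochondrially encoded genes had a median of 0.20, 12 lay above 0, and 4 were called higher. At 1.5-fold no nuclear member was called lower, and with unnamed clusters 5 and 8 added to the class the count was 5. Each of the 3 monocyte-like clusters showed the nuclear shift on its own, with medians of -0.20 in cluster 1, -0.23 in cluster 4 and -0.21 in cluster 11.

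**Figure D1:**
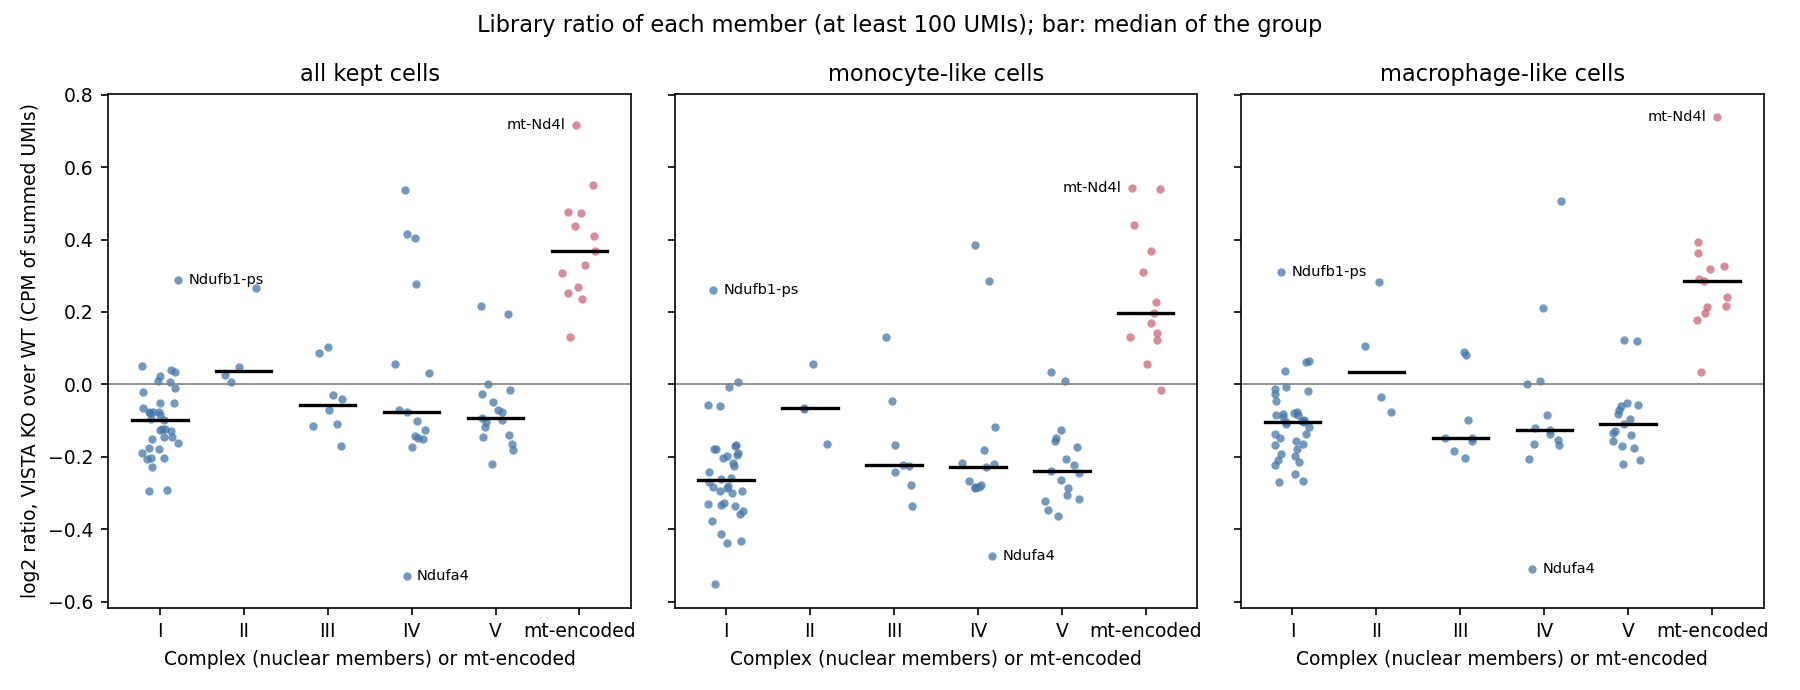
Log2 ratio (VISTA KO over WT, from CPM of summed UMIs) of each member with at least 100 UMIs, by complex for nuclear members and in 1 column for mitochondrially encoded ones, in all kept cells, monocyte-like and macrophage-like cells. Points are genes and bars group medians: in monocyte-like cells the nuclear medians of complexes I, III, IV and V lie between -0.26 and -0.22, complex II at -0.07 and the mitochondrially encoded genes at 0.20.

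Other quantities moved with the library in the same monocyte-like cells. Malat1, a nuclear RNA whose share rises in droplets short of cytoplasmic RNA, stood at 7578 CPM in WT and 11396 CPM in KO. The summed level of 16 macrophage markers was 2612 CPM in WT and 4755 CPM in KO, with 10 higher, none lower and none at 0, and that of 13 monocyte markers 18557 and 17740 CPM, with 2 higher and 3 lower. The 5 erythroid markers summed to 1.8 and 336 CPM, and 12 neutrophil markers to 261 and 191 CPM. The median share of mitochondrial UMIs per cell was 1.07% in WT and 1.20% in KO. The part of these differences in the member ratios was not tested. Within bands of depth the nuclear median was -0.25 in cells of 500 to 2000 UMIs, -0.24 from 2000 to 5000 and -0.19 above, and the mitochondrially encoded median 0.29, 0.17 and 0.14.

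Complex I, the NADH dehydrogenase, held 11 of the 15 nuclear members called lower in monocyte-like cells and 36 of the 78 counted there. Its summed log2 ratio of -0.23 (interval -0.24 to -0.21) was close to those of complex IV (-0.23) and complex V (-0.22). Those complexes had 1 of 13 and 2 of 17 nuclear members called lower. The 36 nuclear subunits of complex I summed to 8577 CPM in WT and 7335 CPM in KO, and 34 were below 0. The subunit furthest below 0 was Ndufb8, a membrane arm accessory subunit, at 465 CPM in WT and 317 CPM in KO (log2 ratio -0.55, interval -0.61 to -0.49). Ndufa5, an accessory subunit of the matrix arm, stood at 120 CPM and 88.8 CPM (-0.44, -0.55 to -0.33). The other 9 called lower, Ndufa12, Ndufb11, Ndufb5, Ndufb2, Ndufc1, Ndufb9, Ndufa8, Ndufs5 and Ndufs4, had log2 ratios from -0.43 to -0.33, and Ndufa12 and Ndufs5 have pseudogenes named after them in RefSeq that could share reads. None of these 11 is one of the core subunits that carry flavin or iron-sulfur clusters. Of those core subunits, Ndufv1, which binds NADH, had 58.2 CPM in WT and 51.4 CPM in KO, and Ndufs1, 24.1 and 23.1 CPM. Over the 14 clusters with at least 100 cells in both libraries, Ndufs1 was below 0 in 6 and Ndufv1 and Ndufs7 in 7 each. Ndufs8 was below 0 in 11 of them and Ndufv2 in 12. These core genes and their grouping were picked after their values were seen.

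Some complex I genes stood apart from that direction. Ndufb1-ps, which RefSeq lists as the coding gene Ndufb1, had 550 CPM in WT and 658 CPM in KO monocyte-like cells (log2 ratio 0.26, interval 0.21 to 0.30). It was higher in KO in macrophage-like cells too, at 367 and 456 CPM (0.31, 0.25 to 0.37). Ndufa6, an accessory subunit, had 264 CPM in WT and 266 CPM in KO. Of the most abundant nuclear complex I transcripts, Ndufb1-ps thus lay above 0, while Ndufa13, also known as GRIM-19, had 563 CPM in WT and 469 CPM in KO monocyte-like cells (-0.26), and Ndufb7 had 452 and 370.5 CPM (-0.29).

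Complex II, succinate dehydrogenase, had the summed ratio closest to 0 of the nuclear complexes in monocyte-like cells and lay above 0 in the other classes compared. Its 4 genes summed to 369 CPM in WT and 348 CPM in KO monocyte-like cells (log2 ratio -0.08, interval -0.14 to -0.02) and to 362 and 386 CPM in macrophage-like cells (0.09, 0.03 to 0.16). Sdha, the flavoprotein, had 55.2 and 52.7 CPM in monocyte-like and 64.2 and 62.7 CPM in macrophage-like cells, with intervals of the ratio that held 0 in both. Sdhb, the iron-sulfur subunit, had 176 and 157 CPM in monocyte-like cells (-0.16, -0.25 to -0.08) and 155 and 166 CPM in macrophage-like cells (0.11, 0.01 to 0.20). The membrane anchors differed from each other: Sdhc had 65.7 CPM in WT and 62.3 CPM in KO macrophage-like cells, and Sdhd 77.7 and 94.7 CPM (0.28, 0.15 to 0.42). Sdhd was also called higher in NK cell-like cells, at 63.9 CPM in WT and 96.1 CPM in KO (0.59, 0.30 to 0.88). No Sdh gene was called in monocyte-like or macrophage-like cells. The summed ratio of the complex was 0.03 (-0.08 to 0.15) in cDC2-like, 0.14 (0.00 to 0.28) in NK cell-like and 0.18 (-0.03 to 0.40) in mature DC-like cells and 0.11 (0.05 to 0.17) in the mixed cluster. In the last 3 of these it was further from 0 than that of any other nuclear complex.

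Complex III, the cytochrome bc1 complex, had 7 of 8 nuclear members below 0 in monocyte-like cells. They summed to 2570 CPM in WT and 2337 CPM in KO (log2 ratio -0.14, -0.16 to -0.11). Uqcr11, a small accessory subunit, was the 1 member called lower, at 330 and 261 CPM (-0.34, -0.40 to -0.27). Uqcrc2, a core subunit, had 84.6 and 69.7 CPM (-0.28, -0.41 to -0.15), and Uqcrc1, its partner, 86.4 and 83.7 CPM (-0.05, -0.17 to 0.08). Uqcrh, the hinge protein that helps to hold cytochrome c1, had 611 CPM in WT and 668 CPM in KO (0.13, 0.09 to 0.17) and was the only complex III nuclear member above 0 in that class. RefSeq has 2 pseudogenes named after Uqcrh, so its counts are uncertain. Both Uqcrh and Uqcrc1 were above 0 in 9 of the 14 clusters compared, and 2 of 8 members were above 0 in macrophage-like cells and 5 of 8 in the mixed cluster. The abundant Uqcrq and Uqcrb had 538 and 455 CPM, and 429 and 368 CPM.

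Complex IV, cytochrome c oxidase, had 1 nuclear member called lower in monocyte-like cells, Ndufa4. The 15 genes summed to 7414 CPM in WT and 6311 CPM in KO (log2 ratio -0.23, -0.25 to -0.22). Cox8a, Cox6c and Cox6b1, all small structural subunits, were the most abundant, at 1437 and 1268 CPM, 917 and 763 CPM, and 785 and 676 CPM. RefSeq has pseudogenes named after Cox6c, Cox5b and Cox7c, so the counts of these genes are uncertain. Cox5a, which sits on the matrix side, had 550 CPM in WT and 451 CPM in KO (-0.29). Cox7a2l, described elsewhere as a supercomplex assembly factor, lay on the other side. It had 149 CPM in WT and 182 CPM in KO monocyte-like cells (0.29, 0.20 to 0.37) and 175 and 203 CPM in macrophage-like cells (0.21, 0.12 to 0.30). Whether it has that role in these cells was not tested. Neither ratio of Cox7a2l reached 0.32.

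Complex V, the ATP synthase, followed the nuclear majority in monocyte-like cells. Its 17 nuclear members summed to 8587 CPM in WT and 7362 CPM in KO (log2 ratio -0.22, -0.23 to -0.21), and 15 of 17 were below 0. Those called lower were Atp5f1, the peripheral stalk subunit b, at 566 and 440 CPM (-0.36), and Atp5g1, a gene for subunit c of the rotor ring, at 509 and 401 CPM (-0.35). RefSeq has pseudogenes named after Atp5f1, Atp5c1, Atp5l (3) and Atp5k (4), so their counts are uncertain. The most abundant members, Atp5e, Atp5l and Atp5h, had 1082 and 977 CPM, 977 and 828 CPM, and 912 and 791 CPM. Atp5k, subunit e of the membrane part, had 237 CPM in WT and 242 CPM in KO, and in mature DC-like cells it was called higher, at 191 and 275 CPM (0.53, 0.29 to 0.78).

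In macrophage-like cells the nuclear shift was smaller and few single genes passed. Nuclear members summed to 24985 CPM in WT and 23270 CPM in KO (log2 ratio -0.10, interval -0.11 to -0.09), and 64 of 80 lay below 0 around a median of -0.10, where the median of all genes was 0.03. Of 78 with at least 100 UMIs, 1 was called lower, Ndufa4, and 0 higher, against 4.85% and 10.6% of all genes. Atp5j2, subunit f of the ATP synthase, had 592 CPM in WT and 508 CPM in KO (-0.22), Cox7b 471 and 408 CPM (-0.21), and Ndufb8 437 and 363 CPM (-0.27). Mitochondrially encoded members summed to 7976 CPM in WT and 9517 CPM in KO (0.25, 0.24 to 0.27), all 13 lay above 0, and 4 were called higher. Cluster 16, whose 120 WT and 52 KO cells had the highest mitochondrially encoded level of the class (10837 and 15934 CPM), weighed on that count: without it 7 were called higher, and in cluster 3 alone 10 were, against 8.43% of all genes. Cluster 16 had 3 supporting macrophage markers and 2 of cDC2, and the clusters that shared its leading genes Lpl, Ccl17 and Ear2 were named mixed cDC2 and macrophage in all 3 other clusterings run. Neutrophil markers summed to 801.5 CPM in WT and 196 CPM in KO macrophage-like cells, 9 of 12 lower and none at 0. In clusters 3 and 6, which held most cells of the class, the WT and KO sums were 196 and 153 CPM, and 288 and 187 CPM. Malat1 had 10424 and 14456 CPM in the class. The part of these differences in the member ratios was not tested. By depth, from 500, from 2000 and from 5000 UMIs, the nuclear median was -0.05, -0.09 and -0.09 and the mitochondrially encoded median 0.43, 0.40 and 0.16.

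The mitochondrially encoded genes did not shift by a common factor. In monocyte-like cells mt-Nd4l, a small core subunit of complex I, had 93.6 CPM in WT and 136 CPM in KO (log2 ratio 0.54, interval 0.44 to 0.65), and mt-Co1, the catalytic subunit of complex IV, 2100 and 2851 CPM (0.44, 0.42 to 0.46). mt-Nd1 had 292 and 377 CPM (0.37, 0.31 to 0.43), and mt-Nd6, read from the other strand, 6.1 and 8.9 CPM (0.54, 0.12 to 0.96). These 4 were the genes called higher in that class. mt-Nd4, which overlaps mt-Nd4l by 7 bases in the RefSeq annotation and is read from the same transcript, had 867 CPM in WT and 857 CPM in KO (-0.02, -0.05 to 0.02). In macrophage-like cells mt-Nd4l had 47.6 and 79.5 CPM (0.74) and mt-Nd4 506 and 519 CPM (0.03). A 3′ tag that falls in such an overlap cannot be given to 1 gene, and how such reads were assigned was not stated in the sources read here.

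The other mitochondrially encoded genes lay between those extremes. The complex IV genes mt-Co2 and mt-Co3 had 2535 and 2777 CPM (log2 ratio 0.13) and 1739 and 1891 CPM (0.12) in monocyte-like cells, well short of the ratio of mt-Co1. The complex V genes mt-Atp6 and mt-Atp8, which overlap by 43 bases, had 2130 and 2495 CPM (0.23) and 58.7 and 72.8 CPM (0.31). mt-Cytb, the complex III subunit, had 871 and 905 CPM (0.06). Of the remaining complex I genes, mt-Nd2 had 315 and 354 CPM (0.17), mt-Nd5 154 and 170 CPM (0.14) and mt-Nd3 61.8 and 70.8 CPM (0.20).

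**Figure D2:**
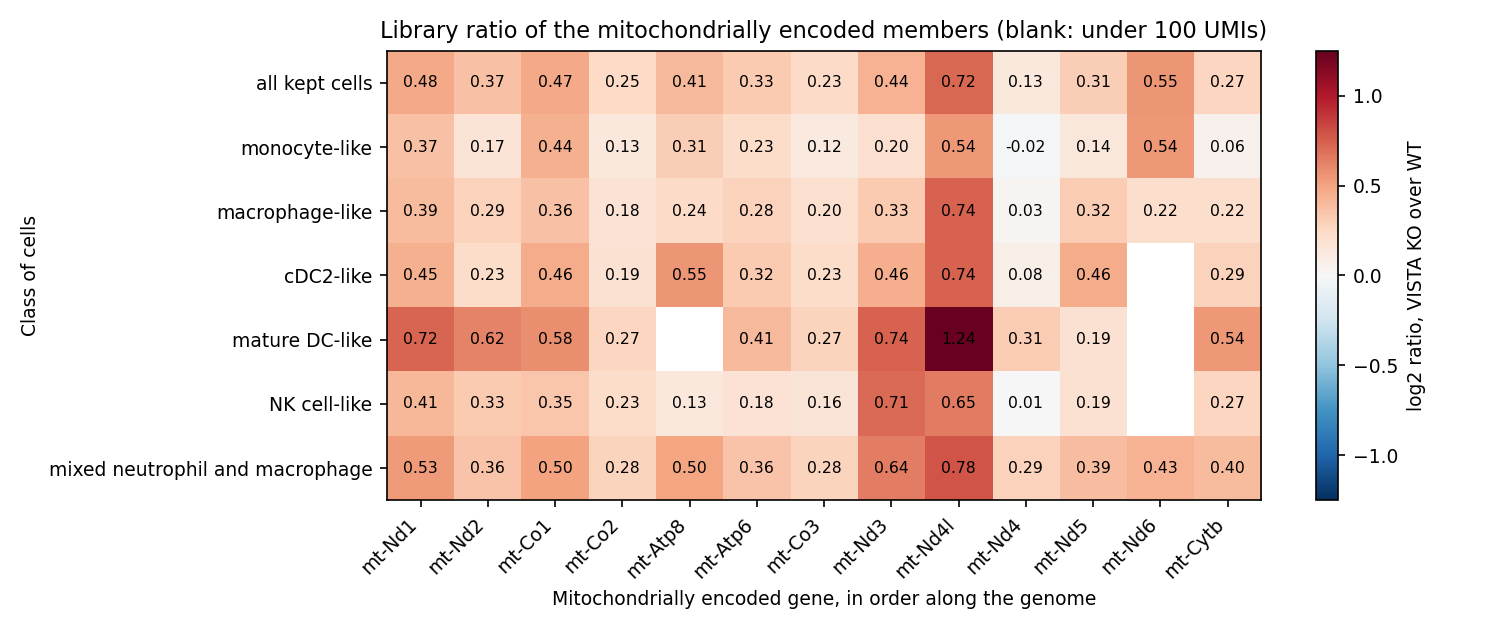
Log2 ratio (VISTA KO over WT) of each mitochondrially encoded gene, in order along the mitochondrial genome (columns), in each class of cells (rows); blank cells had under 100 UMIs. mt-Nd4l runs from 0.54 in monocyte-like to 1.24 in mature DC-like cells, beside mt-Nd4 at -0.02 in monocyte-like and 0.03 in macrophage-like cells.

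The number of mitochondrially encoded UMIs per nuclear member UMI was higher in the KO library in nearly every named class. It was 0.408 in WT and 0.547 in KO monocyte-like cells, 0.319 and 0.409 in macrophage-like, 0.321 and 0.443 in cDC2-like, 0.277 and 0.381 in mature DC-like, 0.388 and 0.486 in NK cell-like cells, and 0.356 and 0.473 in the mixed cluster. Neutrophil-like cells were the exception in these summed values, at 0.446 in WT (392 cells) and 0.311 in KO (77 cells). Their values rest on 2504 mitochondrially encoded UMIs in WT and 353 in KO. Of these, 69.8% lay in 40 WT droplets and 68.6% in 8 KO droplets. The median share of such UMIs per droplet was instead higher in KO, at 0.098% in WT and 0.119% in KO. Unnamed clusters 7 and 12 held shallow droplets, with medians of 736 and 811 UMIs and of 1009.5 and 1125.5 UMIs, and stood far above the rest: cluster 7 had 1.73 and 2.13, with Malat1 at 45920 and 55020 CPM, and cluster 12 had 0.949 and 0.970. Cluster 7 had 99 WT and 1221 KO droplets, so values over all kept cells take a larger part of their mitochondrially encoded UMIs from it in KO.

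**Figure D3:**
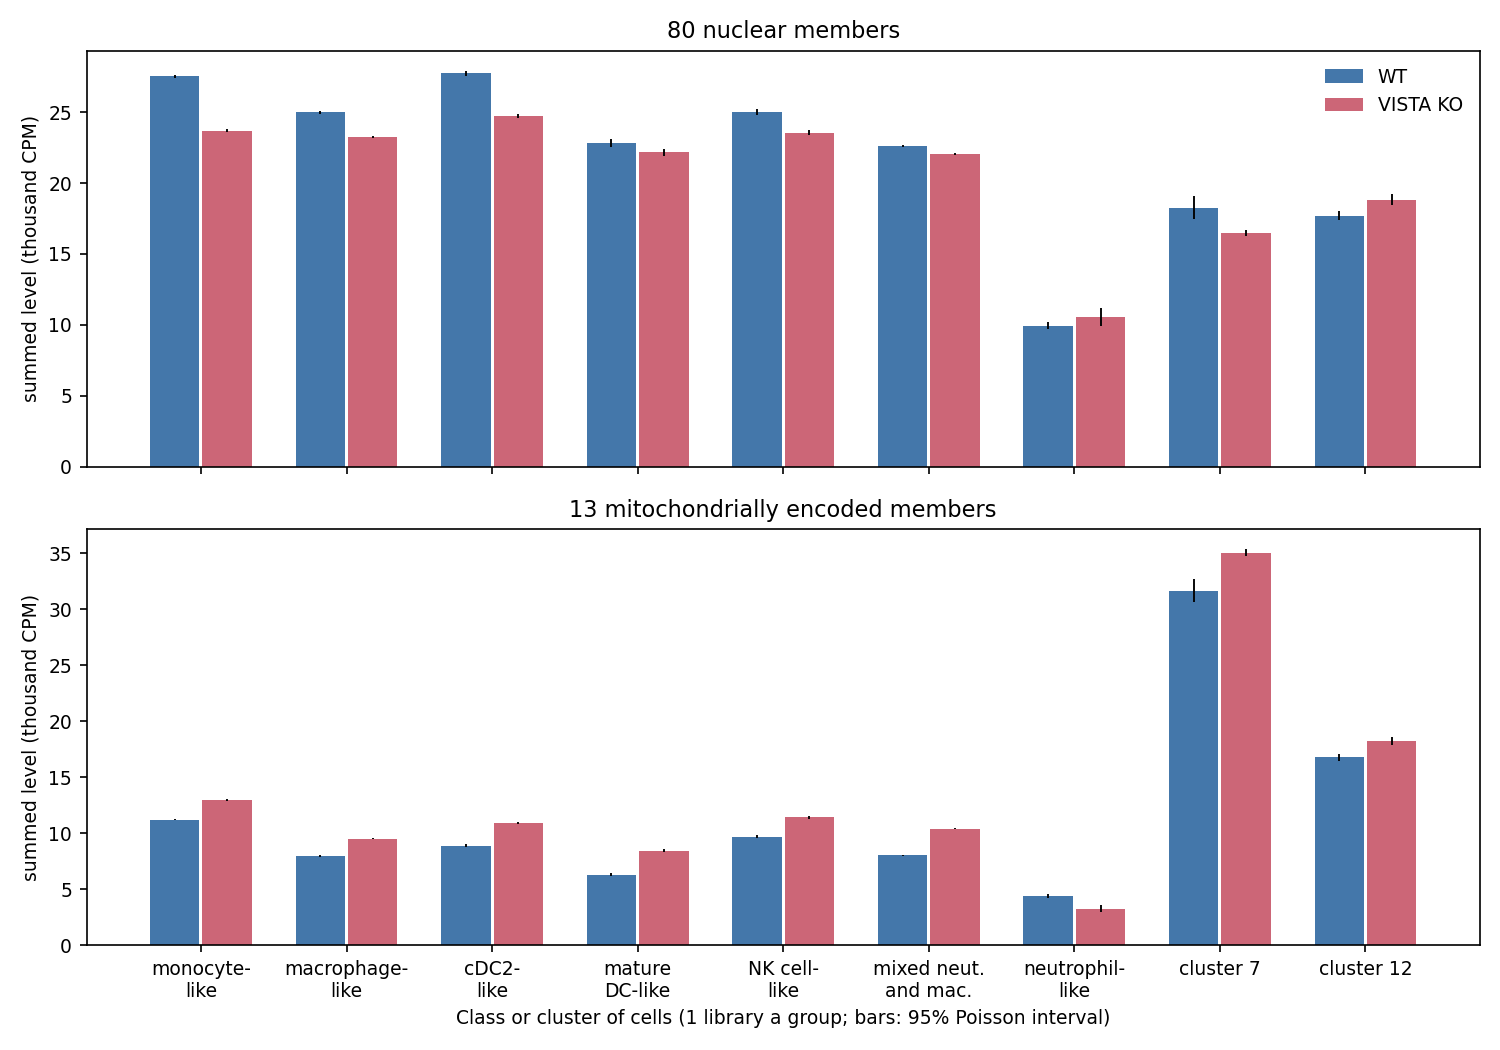
Summed level (in units of 1000 CPM, axis from 0) of the nuclear members (top) and the mitochondrially encoded members (bottom) in each class and library, with exact Poisson intervals. Neutrophil-like cells are lowest in both panels, and KO lies above WT in the lower panel in every other class named in the text.

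The remaining classes with at least 100 cells in both libraries had nuclear medians below 0, close to 0 in all but cDC2-like cells. In cDC2-like cells the nuclear median was -0.14, 68 of 78 members were below 0, and 8 of 76 were called lower, against 6.39% of all genes. Ndufb8 had 471 CPM in WT and 358 CPM in KO (log2 ratio -0.40), Cox5a 749 and 595 CPM (-0.33), Atp5g1 663 and 529 CPM (-0.33) and Ndufa5 142 and 112 CPM (-0.34). In NK cell-like cells the nuclear median was -0.06, with 51 of 78 members below 0. There 4 of 76 were called lower, against 4.16% of all genes, and 2 higher (Sdhd and Ndufb1-ps), against 11.8%. Mature DC-like cells had a nuclear median of -0.05, with 45 of 76 members below 0. They had 3 of 75 lower and 2 higher (Ndufb1-ps and Atp5k), against 4.66% and 11.4%. The mixed cluster had a nuclear median of -0.04, with 50 of 80 members below 0. It had 1 lower (Ndufa4) and 0 higher of 78, against 4.6% and 12.8%. Mitochondrially encoded genes were called higher in 7 of 12, 5 of 12, 7 of 11 and 10 of 13 cases in these 4 classes, against 13%, 11.8%, 11.4% and 12.8% of all genes. Marker levels moved in these classes too. The 16 macrophage markers summed to 1203 CPM in WT and 2248 CPM in KO cDC2-like cells (11 higher, 1 lower), 5182 and 7268 CPM in NK cell-like cells (6 higher, 2 lower) and 2720 and 4802 CPM in mature DC-like cells (6 higher, 0 lower), with none at 0. The 11 NK cell markers summed to 23174 and 17138 CPM in NK cell-like cells, with 5 lower and none at 0, and the 12 neutrophil markers to 12013.5 and 8853 CPM in the mixed cluster, with 8 lower and none at 0. Their part in the member ratios was not tested. Over all kept cells 1 of 80 nuclear members was called lower (Ndufa4) and 3 higher, against 7.24% and 15.3%, and 8 of 13 mitochondrially encoded genes were called higher.

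Of the 20 clusters, 14 had at least 100 cells in both libraries. Among 1548 genes with at least 100 UMIs in each of these, 8.72% had ratios above 0 in all 14 and 7.88% below 0 in all 14. Of the 59 nuclear members that met the same minimum, 10 (16.9%) were below 0 in all 14: Ndufa4, Ndufb8, Ndufb11, Ndufb7, Ndufa2, Cox6a1, Cox6c, Cox7a2, Atp5c1 and Atp5j2, listed after their values were seen. Ndufb1-ps was the 1 member above 0 in all 14 (1.69%), from 0.13 to 0.64. Of the 9 mitochondrially encoded genes that met it, 6 (66.7%) were above 0 in all 14, mt-Co1 from 0.20 to 0.58. All clusters come from the same pair of libraries, so their agreement is no replication. Malat1 was above 0 in all 14 as well, from 0.11 to 0.58.

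Ndufa4 had the lowest log2 ratio of any nuclear member with at least 100 UMIs in all kept cells. The gene lies at chr6:11900372-11907450 (RefSeq, GRCm38.p6) and encodes a complex IV subunit that can be replaced by a related protein whose mouse gene is AA467197. In all kept cells Ndufa4 had 399 CPM in WT and 277 CPM in KO (-0.53, interval -0.56 to -0.50). In monocyte-like cells it had 601 and 433 CPM (-0.47, -0.52 to -0.42), in macrophage-like cells 293 and 206 CPM (-0.51, -0.59 to -0.43), in NK cell-like cells 592 and 459 CPM (-0.37, -0.48 to -0.26) and in cDC2-like cells 477 and 387 CPM (-0.30, -0.41 to -0.20). Mature DC-like cells, at 194 and 187 CPM (-0.06, -0.32 to 0.21), had an interval that held 0. Over the 14 clusters the ratio ran from -0.62 in cluster 0 to -0.06 in cluster 14. With cells thinned to 1000 UMIs, 43.3% of WT and 33.4% of KO monocyte-like cells held an Ndufa4 UMI (85.9% and 68.4% before thinning), against 9.57% of WT and 15.2% of KO neutrophil-like cells. Thinning left out cells under 1000 UMIs. The neutrophil-like class had median depths of only 1217 UMIs in WT and 1400 UMIs in KO, with 77 KO cells in all, so its shares rest on few cells.

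AA467197 did not mirror that ratio. It had 1331 CPM in WT and 1425 CPM in KO over all kept cells (log2 ratio 0.10), 1100 and 1153 CPM in monocyte-like cells (0.07) and 1254 and 1280 CPM in macrophage-like cells (0.03). It was higher in KO in NK cell-like cells, at 560 and 733 CPM (0.39), and lower in cDC2-like cells, at 1414 and 1135 CPM (-0.32), and in mature DC-like cells, at 1790 and 1399 CPM (-0.36). Across clusters the genes tended weakly to opposite levels. In WT, cluster 4 had the most Ndufa4 (704 CPM) beside 357 CPM of AA467197. Cluster 5 had the most AA467197 (2730 CPM) beside 254 CPM of Ndufa4. These clusters were picked after their values were seen. Cluster 13 was low in both genes, at 137 CPM of Ndufa4 and 594 CPM of AA467197 in WT, and cluster 8 had 396 and 2703 CPM. The correlation of log2 CPM over 20 WT clusters was r = -0.39 (rho = -0.52), and over 19 KO clusters r = -0.30 (rho = -0.28), where clusters of a library share its depth and are not independent.

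**Figure D4:**
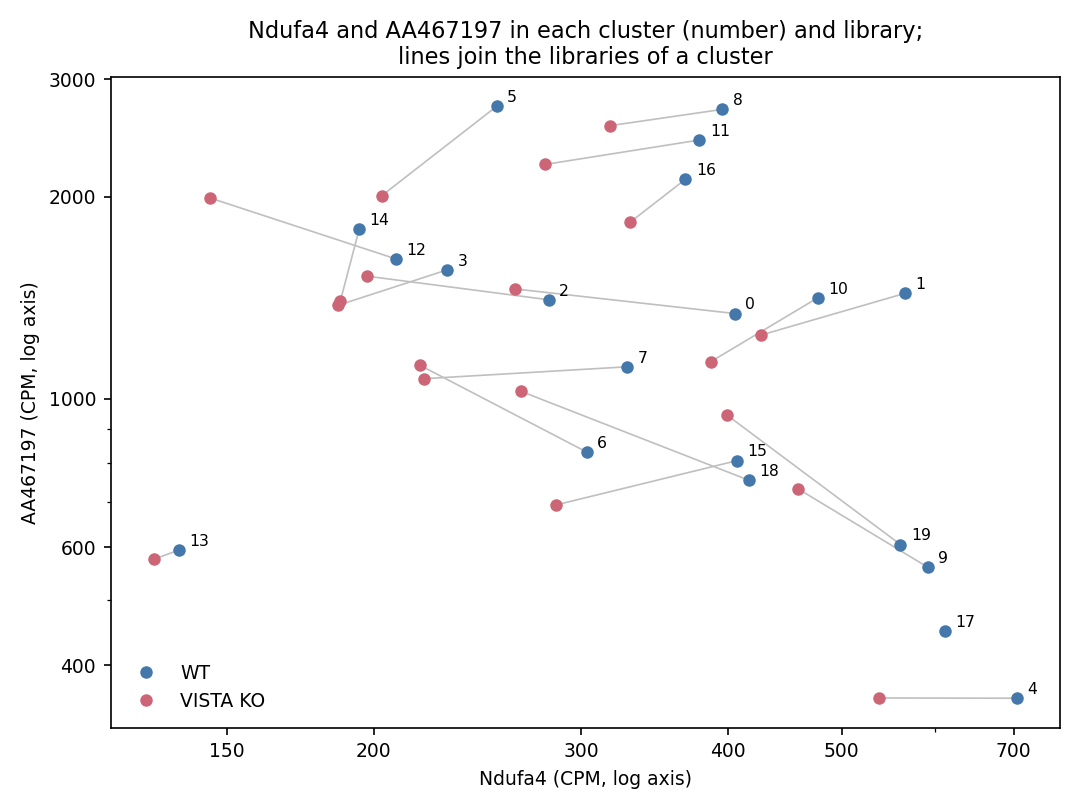
Level of Ndufa4 (horizontal, CPM, log axis) and AA467197 (vertical, CPM, log axis) in each cluster, numbered, with lines joining the WT and KO values of a cluster. The lines run mainly leftward, from 704 to 537 CPM of Ndufa4 in cluster 4, where AA467197 was 357 CPM in both libraries.

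Monocyte-like and macrophage-like cells differed more in mitochondrially encoded than in nuclear members. Mitochondrially encoded genes were higher in monocyte-like cells, with median log2 ratios over macrophage-like cells of 0.55 in WT and 0.45 in KO where all genes had -0.13 in both. By the rule of 0.32 applied in both libraries, 9 of 13 were higher and 1 (mt-Nd6) lower, against 15% and 26.4% of all genes. Of 78 nuclear members 8 were higher and 5 lower, with medians of 0.11 in WT and -0.02 in KO, on opposite sides of 0. Ndufa4 (1.03 in WT, 1.07 in KO) and Cox6b2 (1.44 and 1.51), the testis form of subunit 6b, had the largest ratios, though Cox6b2 was at 7.6 CPM in WT monocyte-like cells against 785 CPM of Cox6b1. Uqcrh, Uqcrfs1 (the Rieske iron-sulfur protein), Atp5h, Ndufb1-ps, Ndufb2 and Ndufa3 were the others on that side. Higher in macrophage-like cells were Cox7a1, Ndufa12, Ndufa5, Atp5g2 and Ndufv3. Ndufa12 had 97.9 CPM in monocyte-like and 154 CPM in macrophage-like cells of WT, and 72.5 and 136 CPM in KO.

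**Figure D5:**
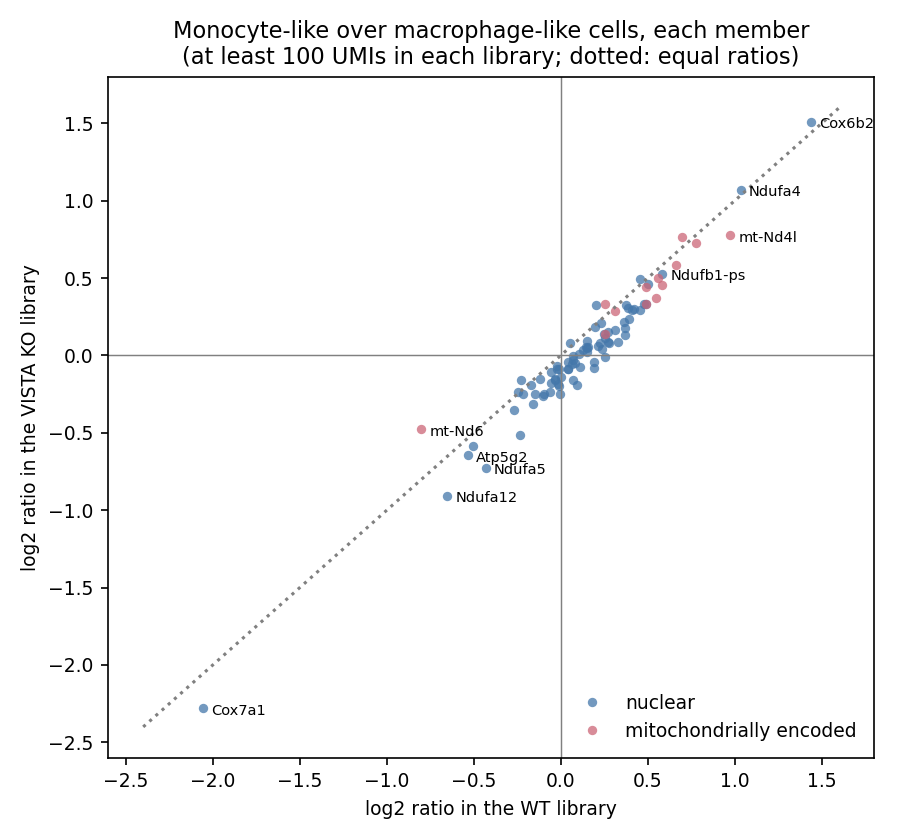
Log2 ratio of each member between monocyte-like and macrophage-like cells in the WT library (horizontal) and the VISTA KO library (vertical); points are genes with at least 100 UMIs in each library and the dotted line marks equal ratios. Ndufa4 lies at 1.03 and 1.07, Cox7a1 at -2.06 and -2.28, and most mitochondrially encoded genes at the upper right.

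Paralogous subunits showed which form each class used. Cox7a1, the heart and muscle form of subunit 7a, made up 4.09% (WT) and 4.34% (KO) of Cox7a1 and Cox7a2 UMIs in macrophage-like cells and 0.85% and 0.89% in monocyte-like cells, with intervals that did not overlap between the classes. The c-ring subunit is read from 3 genes that encode the same mature protein. In monocyte-like cells Atp5g1 gave 43.3%, Atp5g2 32.0% and Atp5g3 24.7% of c-ring UMIs in WT, and 39.6%, 37.4% and 23.1% in KO. In macrophage-like cells the shares were 38.8%, 39.8% and 21.4% in WT and 35.4%, 44.5% and 20.1% in KO. Atp5g2 itself was near its WT level in monocyte-like cells, at 376 and 378 CPM, so in that class the shares moved with Atp5g1 and Atp5g3 (291 and 233 CPM). In macrophage-like clusters 3 and 6 Atp5g2 was higher in KO, at 533 and 600 CPM and at 555 and 588 CPM. Over the 14 clusters compared it was above 0 in 11 and below 0 in 3. Cox6a1, the widespread form, gave at least 98.3% of COX6A UMIs in these 2 classes. The muscle form Cox6a2 rested on 12 WT and 56 KO UMIs in macrophage-like cells (1.41 and 3.58 CPM), and Ndufa4l2, a hypoxia-responsive paralog, on 28 WT and 75 KO UMIs in macrophage-like cells (1.11% and 2.27% of Ndufa4 and Ndufa4l2 UMIs), 18 and 1 UMIs in cDC2-like cells, and 0 and 3 UMIs in monocyte-like ones.

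Single genes also set other classes apart from macrophage-like cells. In cDC2-like cells 11 of 77 nuclear members were higher and 2 lower in both libraries, against 13.2% and 22.1% of all genes, so the share higher was near that of all genes. Ndufa6 had the largest ratios, with 424 CPM in WT and 418 CPM in KO cDC2-like cells against 229 and 212 CPM in macrophage-like cells (log2 ratios 0.89 and 0.98). Mature DC-like cells had 2 of 77 higher (Cox7a2l and Uqcrh) and 13 lower, against 12.8% and 24.3%. NK cell-like cells had 3 higher (Ndufa4, Uqcrh and Ndufb11) and 4 lower (Cox7a1, Ndufc1, Ndufc2 and Ndufv3) of 77, against 21.5% and 18.5%. There 4 of 13 mitochondrially encoded genes passed upward and 0 downward, with medians of 0.30 in WT and 0.34 in KO beside 0.03 and 0.07 for all genes. Cox7a1 and Ndufv3 were thus lower than in macrophage-like cells in all of the 4 classes compared with them.

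Neutrophil-like cells held the lowest levels. Nuclear members summed to 9950 CPM in WT and 10547 CPM in KO, and mitochondrially encoded members to 4440.5 and 3277 CPM. Single members differed from monocyte-like cells to unequal extents: Ndufb2 had 35.5 CPM in WT neutrophil-like and 192 CPM in WT monocyte-like cells, while Cox8a had 1034 and 1437 CPM. These 2 were picked after their values were seen. No mitochondrially encoded UMI was found in 127 of 392 WT droplets (32.4%) and 20 of 77 KO droplets (26.0%), and the 40 WT and 8 KO droplets with most of them held 69.8% and 68.6% of such UMIs. In monocyte-like cells the 326 and 297 cells with most of them, an equal share of the class, held 21.98% and 22.3%. Median depth was 1217 and 1400 UMIs, under that of monocyte-like cells (4385 and 3726).

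The summed levels ordered these 6 classes and the mixed cluster. In WT, nuclear members were highest in cDC2-like (27731 CPM) and monocyte-like cells (27515.5 CPM), whose counting intervals overlapped, then NK cell-like (25020 CPM) and macrophage-like cells (24985 CPM), which overlapped too, then mature DC-like cells (22819 CPM) and the mixed cluster (22617 CPM), and neutrophil-like cells last. In KO, cDC2-like cells (24708 CPM) stood above monocyte-like (23692.7 CPM), NK cell-like (23544 CPM) and macrophage-like cells (23270 CPM), and the intervals of monocyte-like and NK cell-like cells overlapped. Among the same groups, mitochondrially encoded genes were highest in monocyte-like cells in both libraries and, after neutrophil-like cells, lowest in mature DC-like cells (6311 CPM in WT and 8442 CPM in KO).

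Genes that build or feed the complexes were read from lists chosen by function, and their counts in monocyte-like cells stand beside 7.61% of all genes lower and 15.5% higher. In that class mitochondrial ribosomal proteins, which translate the mitochondrially encoded subunits, had 23 of 78 lower and 0 higher, with a median of -0.25; Mrpl55 had 35.8 CPM in WT and 20.9 CPM in KO, and Mrps6 7.2 and 4.5 CPM. Carriers of the mitochondrial membranes had 3 of 10 lower and 0 higher (median -0.25), among them Timm23, an import channel, at 151 and 105 CPM, and Vdac1, the outer membrane pore, at 112 and 82.7 CPM. Of the structural subunits and electron carriers outside the symbol rule 2 of 5 were lower and 0 higher (median -0.32): Cox4i2 at 9.0 and 4.2 CPM and Cyc1, cytochrome c1, at 112 and 83.7 CPM. Cox4i1, the main form of subunit 4, had 1115 and 1035 CPM (-0.11), and Ndufab1, the acyl carrier protein, 167 and 136 CPM (-0.29).

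Most assembly factors of complexes I, II, III and V lay below 0 in monocyte-like cells, with few called. The medians were -0.18 for complex I factors (14 of 17 below 0), -0.17 for those of complexes II and III (6 of 9), -0.03 for complex IV (11 of 18) and -0.16 for complex V (3 of 3). Complex I assembly factors had 1 of 16 lower (Tmem126b, 13.5 CPM in WT and 8.6 CPM in KO) and 2 higher (Foxred1, 14.5 and 19.2 CPM, and Dmac2, 4.6 and 7.5 CPM), shares below those of all genes. Those of complexes II and III had 2 of 8 lower (Uqcc2, 169 and 125.2 CPM, and Ttc19, 21.2 and 16.3 CPM) and 1 higher (Uqcc1, 6.1 and 8.3 CPM), those of complex IV 1 of 17 lower (Coa6) and 1 higher (Cox15), and those of complex V none of 3 in either direction. Genes of mitochondrial DNA upkeep and expression had a median of 0.12, with 1 of 12 lower (Lrpprc, which stabilises mitochondrial mRNA, 11.0 and 7.7 CPM) and 1 higher (Polg, the mitochondrial DNA polymerase, 12.8 and 16.7 CPM). Nuclear regulators had 0 called of 6, with Nrf1 at 20.3 and 17.5 CPM and Esrra at 23.6 and 26.2 CPM. Of replacements, inhibitors and uncouplers, Higd1a was the 1 of 7 lower (302 and 236 CPM), Atpif1, the ATP synthase inhibitor, had 278 and 224 CPM (-0.31), and Ucp2, an inner membrane carrier, 515 and 641 CPM (0.32).

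In macrophage-like cells, where 4.85% of all genes were lower and 10.6% higher, mitochondrial ribosomal proteins again had calls in 1 direction. They had 6 of 78 lower and 0 higher with a median of -0.12, Mrpl55 at 60.1 CPM in WT and 40.2 CPM in KO. Mitochondrial DNA upkeep and expression had 0 of 13 lower and 3 higher, with a median of 0.19, Polg at 10.1 and 13.9 CPM and Pnpt1, an RNA-degrading enzyme of mitochondria, at 16.8 and 23.1 CPM. Of the replacements, inhibitors and uncouplers 2 of 7 were higher: Ucp2, at 517 and 653 CPM, and Nos2, the inducible nitric oxide synthase, at 28.7 and 37.9 CPM. Hif1a, a hypoxia-responsive transcription factor, was the 1 of 8 regulators higher, a share near that of all genes, at 178 and 245 CPM (0.46). Cycs, cytochrome c, had 336 CPM in WT and 255 CPM in KO (-0.40) and was the 1 of 5 structural subunits and electron carriers outside the symbol rule called lower.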

How the data were processed

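The deposited matrices hold whole-number UMI counts of 32285 genes per cell barcode, not normalized. Cell Ranger 5.0.0 produced them per the file headers, and the submitters' processing notes name mm10 and Seurat 4.0. The matrices' antibody tags and the 2 antibody tag libraries were not used here. RefSeq gave positions and promoters of GRCm38.p6.

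Cells were kept with at least 200 genes, 500 UMIs and at most 10% mitochondrial UMIs. Both libraries were clustered together in scanpy 1.11.5 (2000 variable genes without the members, Vsir and mitochondrial, ribosomal, cycling, Xist and Y-linked genes, 30 components, 15 neighbours, Leiden resolution 1). A class name needed at least 3 supporting markers of its list. No doublet caller was run, and an alternative left out the deepest 10% of cells.

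UMIs were summed per class and library and given as CPM. Ratios had 1 UMI added to each sum, with exact conditional binomial intervals of 95%; levels had exact Poisson and shares Clopper-Pearson intervals (scipy 1.17.1). Ratios were made for classes with at least 100 cells in both libraries, and members were counted at 100 UMIs. A UMI counts a molecule, so levels were not divided by length. With 1 library a group no test was run. The method was tested on simulated data, where the criterion for interval coverage was revised after a first run.

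Named genes were all mitochondrially encoded and Sdh members, the 3 most abundant and the 2 highest and 2 lowest ratios per complex, isoform pairs, 2 at each end of each pathway list, and AA467197, Cox4i1, Cox4i2, Ndufab1, Cyc1 and Malat1; not every such gene is printed. Members, markers and lists were chosen with earlier results of these data known. Promoters of 13 nuclear members were not matched.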

Additional observations from a re-analysis of the deposited data

How the results depend on the processing

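With 1 library a genotype none could be left out. No paired analysis was possible because there was a single library of each genotype. The direction of all 6 medians was kept in every alternative run, with ranges of -0.294 to -0.167 (nuclear) and 0.135 to 0.285 (mitochondrially encoded) in monocyte-like cells, -0.138 to -0.0764 and 0.194 to 0.482 in macrophage-like cells, and -0.155 to -0.0735 and 0.201 to 0.385 in all kept cells. The cause of the changes below was not tested. Alternatives that left out or added clusters were chosen after seeing the data.

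The nuclear median of all kept cells moved from -0.08 to -0.155 when centred on all genes, to -0.118 without the deepest 10% of cells and to -0.154 without neutrophil-like cells, the mixed cluster and clusters 7 and 12. The mitochondrially encoded median of all kept cells (0.37) was 0.290 when centred, 0.308 at up to 5% mitochondrial UMIs, 0.282 from 2000 UMIs a cell, 0.278 with clusters weighted equally and 0.201 without those clusters. In monocyte-like cells it (0.20) was 0.285 with no mitochondrial limit, 0.135 from 2000 UMIs and 0.275 with clusters weighted equally. In macrophage-like cells it (0.28) was 0.211 at up to 5%, 0.194 from 2000 UMIs, 0.396 without the deepest cells, 0.482 thinned to 1000 UMIs a cell and 0.458 with clusters weighted equally.

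The 15 nuclear members called lower in monocyte-like cells became 33 when centred, 23 when thinned, 5 with clusters 5 and 8 added and 0 at 1.5-fold, where the 4 mitochondrially encoded genes called higher also became 0. The 1 nuclear member called lower in macrophage-like cells became 3 when thinned and 0 at 1.5-fold. The 4 mitochondrially encoded genes called higher there became 2 at up to 5%, 2 from 2000 UMIs, 8 without the deepest cells, 9 when thinned, 12 with clusters weighted equally, 1 at 1.5-fold, 7 without cluster 16 and 8 with cluster 0 added.

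Leaving aside 1.5-fold and changes of the clusters in a class, of 19 members called in monocyte-like cells 11 (each library clustered alone) to 19 kept their call, of 5 in macrophage-like cells 3 to 5, and of 12 in all kept cells 8 to 12. The 1 value that changed sign was Cox6a2 in all kept cells, which rests on 71 and 135 UMIs and went from 0.54 to -0.0258 with clusters weighted equally.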
